A study of Mus musculus with 2 samples.

Results

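PRC1, Polycomb repressive complex 1, was examined here through 9 of its subunit genes, *Bmi1*, *Ring1*, *Rnf2*, *Cbx2*, *Cbx7*, *Cbx8*, *Phc1*, *Phc2* and *Pcgf1*. They were taken by gene symbol, in a choice made with earlier results of these data known, and all 9 were found among the 24421 gene symbols of the count files. RNA was sequenced from hematopoietic stem cells (HSCs), the rare marrow cells that renew themselves and feed all blood lineages, taken from the lineage-negative, Sca-1+, c-Kit+ fraction by a CD150+ gate that left out CD48, CD34 and Flt3. There were 2 libraries with 1 per genotype, so no difference given here has a replicate check. The WT library came from *Ezh2* +/+ CreERT+/- cells and the other from *Ezh2* Δ/Δ CreERT+/- cells, both on the C57BL/6 strain. Both carried Cre-ERT, a recombinase that works only after tamoxifen is given.

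Per the labels, CD45.2 marrow of each kind was grown in lethally irradiated CD45.1 hosts, tamoxifen was injected on 5 consecutive days (100 µl at 10 mg/ml), and cells were sorted 1 month later. The labels give neither the age nor the number of animals, and the sort markers they list do not include CD45.2, which would set donor cells apart from those of the host. By this design the recombinase was not limited to HSCs within the transplanted marrow.

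PRC1 keeps developmental genes silent by compacting chromatin and by attaching ubiquitin to histone H2A. Its enzyme is Ring1 or Rnf2, always bound to a Pcgf protein such as Bmi1. In the canonical form a Cbx protein reads H3K27me3, the mark that the methyltransferase Ezh2 places as part of PRC2, and a Phc protein links complexes to each other. Variant forms carry Rybp or Yaf2 in place of Cbx and do not need the mark. In HSCs Bmi1 is known for sustaining self-renewal and for silencing *Cdkn2a*, and the Cbx proteins are known to have distinct roles, Cbx7 favouring self-renewal and Cbx2 and Cbx8 favouring differentiation.

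The promoters of *Cbx8* and *Bmi1* are shown because these genes, chosen after their values were seen, lay on opposite sides of the comparison between libraries. Each is the RefSeq window from 250 bases before to 50 bases after the start site on GRCm38.p6, at chr11:119040864-119041163 on the minus strand for *Cbx8* and chr2:18676768-18677067 on the plus strand for *Bmi1*. Capitals mark CG dinucleotides, the bases at which unmethylated DNA is bound by the variant subunit Kdm2b.
Cbx8: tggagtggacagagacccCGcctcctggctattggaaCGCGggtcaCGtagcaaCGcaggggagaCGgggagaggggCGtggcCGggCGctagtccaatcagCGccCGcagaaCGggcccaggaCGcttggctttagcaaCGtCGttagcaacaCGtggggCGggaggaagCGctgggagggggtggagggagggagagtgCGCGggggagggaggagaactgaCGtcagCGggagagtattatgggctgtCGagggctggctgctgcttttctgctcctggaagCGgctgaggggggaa
Bmi1: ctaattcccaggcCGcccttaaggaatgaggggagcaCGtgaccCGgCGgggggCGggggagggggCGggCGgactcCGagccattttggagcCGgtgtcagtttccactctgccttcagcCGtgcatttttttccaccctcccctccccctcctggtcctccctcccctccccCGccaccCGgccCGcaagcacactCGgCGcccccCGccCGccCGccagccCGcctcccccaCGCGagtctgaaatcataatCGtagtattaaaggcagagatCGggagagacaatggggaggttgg
The *Cbx8* window held 24 CG dinucleotides and the *Bmi1* window 23, against a median of 7 over 32851 windows of this length. Of all windows, 20.0% held at least as many as *Cbx8* and 21.5% at least as many as *Bmi1*. Both also held the E-box CACGTG 1 time (it reads the same on both strands and contains a CG), which 7.15% of all windows contain. This E-box also occurred in 1 of the 3 windows of *Phc2*, and in no other member window. Windows were listed for 7 of the 9 members, with *Cbx2* and *Pcgf1* missing. Of these 7, *Ring1* (37), *Cbx7* (33) and *Rnf2* (30) had more CG dinucleotides than *Cbx8*, *Phc1* had 9, and the 3 windows of *Phc2* had 2, 19 and 45. Promoter composition thus differed widely within the complex, while the pair shown here was alike in CG content.

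Gene counts summed to 5763118 in the WT library and 4157280 in the Ezh2 KO-labelled library. The 9 subunits together held 3553 and 2755 of these counts, or 0.0617% and 0.0663%. A level of 3 counts, taken as the floor, was 0.521 CPM (counts scaled to a common library total) in WT and 0.722 CPM in the other library. Every interval and floor describes counting error of reads alone, since 1 library per genotype gives no replicate spread. PCR copies of a molecule were not told apart, so the intervals can be too narrow for counts of molecules. The targeted gene itself did not differ beyond counting error, as *Ezh2* had 166 and 129 counts, or 142 and 150 normalised counts (log2 ratio 0.08, 95% interval -0.27 to 0.42). A count summed over all exons cannot reveal the loss of some of them, so the second library is named by its label.

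Markers of HSCs were present in both libraries, among them *Slamf1*, which encodes CD150 (446 and 289 normalised counts), *Mecom* (1039 and 964) and *Hlf* (2152 and 2269). Of the genes gated against, *Cd48* had 10.3 and 12.8 normalised counts, *Flt3* 84.1 and 163 and *Cd34* 821 and 966. Markers of other blood cells differed between the libraries. Neutrophil genes were higher for 6 of 6 genes and summed to 1385 CPM in WT and 3212 CPM in the Ezh2 KO-labelled library. Eosinophil genes summed to 1.74 and 770 CPM, with *Prg2*, *Epx*, *Prg3* and *Ear1* at 0 in WT. *Siglecf* and *Ccr3*, with 5 and 4 counts each, were too low to be tested. Erythroid genes summed to 53.8 and 194 CPM (5 of 5 higher) and B lymphoid genes to 4.51 and 38.2 CPM (*Dntt*, *Igll1* and *Il7r* at 0 in WT). T and NK cell genes summed to 20.1 and 36.6 CPM. Of these, *Cd3e* and *Cd3d* were at 0 in both and *Cd3g* and *Il2rb* at 0 in WT. *Nkg7*, with 99.5 and 127 normalised counts, held the whole of the WT sum. A gene at 0 in WT cannot be lower in the other library. No tally of higher genes is therefore given for the eosinophil, B lymphoid, and T and NK lists. Megakaryocyte genes were lower for 4 of 5 genes, at 572 and 297 CPM. The part of these cells in the subunit differences was not tested. The libraries also differed in sex-linked genes. *Xist*, which is transcribed from the inactive X chromosome, had 801 and 4 counts, and the Y-linked *Ddx3y* (0 and 275), *Eif2s3y* (0 and 194), *Kdm5d* (0 and 106) and *Uty* (0 and 106) were at 0 in WT, genes named after their values were seen. With 1 library per genotype, the sex of the cells and the genotype cannot be told apart in any value given here. In bulk RNA, fewer cells of a type and less RNA per cell cannot be told apart.

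The comparison asked how the subunits of PRC1 differed between HSCs with and without a working *Ezh2* allele, as the labels define them. By fold alone *Cbx8* lay furthest from WT, and every other subunit was less than 1.5-fold apart. Of the 9 subunits, 1 was at least 2-fold lower (*Cbx8*) and 0 were at least 2-fold higher. Over the 12588 genes with a mean of at least 1 CPM, 3.9% were at least 2-fold lower and 4.91% at least 2-fold higher, and a single gene out of 9 does not set the complex apart from this background. These shares were smaller, at 1.34% and 1.14%, over the 8743 genes whose mean normalised count lay within the range of the subunits. *Cbx8*, however, lies at the bottom of that range. Of the 500 genes nearest to *Cbx8* in mean count, 5.6% were at least 2-fold lower. At 1.5-fold the counts of subunits were again 1 lower and 0 higher, against 10% and 10.5% of genes tested.

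Counting error alone was exceeded by 5 of the 9 subunits. The exact 95% interval of the log2 ratio lay above 0 for *Bmi1*, *Rnf2* and *Cbx2* and below 0 for *Cbx7* and *Cbx8*. Over all genes tested 19.2% lay above and 20.8% below, which shows how common such a difference is between these libraries. The median log2 ratio of the 9 subunits was 0.20, against -0.003 over all genes tested, with 6 subunits above 0 and 3 below. Each subunit was also set beside the 500 genes nearest to it in mean normalised count, and all 9 log2 ratios fell inside the central 95% of those genes.

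**Figure D1:**
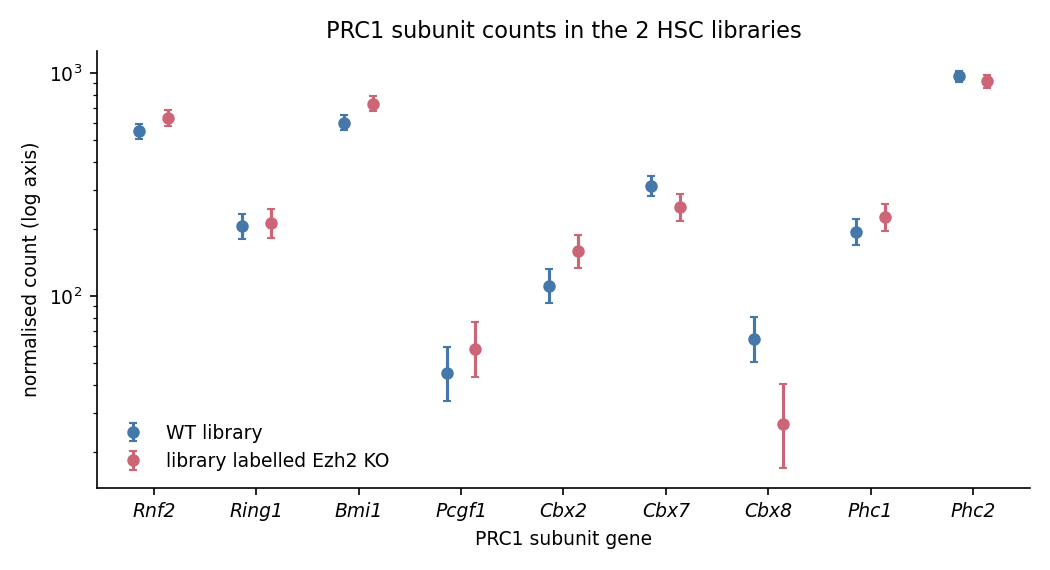
Normalised counts (log axis) of the 9 PRC1 subunit genes in the WT library and the Ezh2 KO-labelled library, 1 library each, with exact 95% Poisson intervals. The intervals of the libraries are apart for *Cbx8* (64.4 and 26.8), *Cbx2* (112 and 160) and *Bmi1* (600 and 729).

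The catalytic pair was examined first. *Rnf2*, the main ubiquitin ligase of the complex (chromosome 1, 151458004 to 151500955, minus strand), had 639 counts in WT and 541 in the Ezh2 KO-labelled library, or 548 and 630 normalised counts. Its log2 ratio was 0.20 (95% interval 0.03 to 0.37), and 83.6% of the 500 genes of similar level had a lower ratio. *Ring1*, its paralog (chromosome 17, 34020792 to 34024680, minus strand), had 240 and 182 counts, or 206 and 212 normalised counts. The log2 ratio of 0.04 (-0.24 to 0.33) was not a difference that could be seen at this depth. The count ratio of *Ring1* to *Rnf2* was 0.376 in WT and 0.336 in the other library. This balance, which does not depend on how the libraries are scaled, was 0.896 times that of WT (0.711 to 1.13), so no shift between the ligases was detectable.

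Of the Pcgf subunits that bind the ligase, *Bmi1* (chromosome 2, 18677018 to 18686629, plus strand) had 699 and 626 counts, or 600 and 729 normalised counts. *Bmi1* was thus 1.22-fold higher in the Ezh2 KO-labelled library, a log2 ratio of 0.28 (0.12 to 0.44). Genes of similar level varied with a robust SD of 0.21, and 92.4% of them had a lower ratio. Of the 61-base stretches in *Bmi1* transcripts, 61 bases being the sequencing cycles in the labels, 13.4% also occur in transcripts of *Gm5946* or *AC114652.1*, and reads from them can be left out of the *Bmi1* count as not unique. *Pcgf1*, which joins *Kdm2b* and *Bcor* in a variant complex (chromosome 6, 83077869 to 83080855, plus strand), had 53 and 50 counts, or 45.5 and 58.3 normalised counts. Its log2 ratio was 0.35, but the interval from -0.23 to 0.94 included 0, and 12.6% of its 61-base stretches occur in *Gm8930*. The balance of *Bmi1* to *Pcgf1* was 0.949 times that of WT (0.623 to 1.45).

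The Cbx readers did not share 1 direction. *Cbx8* (chromosome 11, 119036305 to 119040969, minus strand) had 75 counts in WT and 23 in the Ezh2 KO-labelled library, or 64.4 and 26.8 normalised counts. It was 2.35-fold lower there, a log2 ratio of -1.23 (-2.01 to -0.57). At this low level other genes also varied widely. The robust SD of the 500 nearest genes was 0.68, 5.6% of them were at least 2-fold lower, and 4% had a ratio below that of *Cbx8*. *Cbx2* (chromosome 11, 119022962 to 119031270, plus strand) went the opposite way, with 130 and 137 counts, or 112 and 160 normalised counts. It was 1.43-fold higher, a log2 ratio of 0.51 (0.16 to 0.87), above 91.2% of genes of similar level. *Cbx7* (chromosome 15, 79915807 to 79971119, minus strand) had 364 and 215 counts, or 312 and 251 normalised counts, a log2 ratio of -0.32 (-0.57 to -0.07), with 15.8% of similar genes below it.

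The balance among Cbx readers was therefore unequal in the 2 libraries. In WT there were 1.73 counts of *Cbx2* for each of *Cbx8*, and in the Ezh2 KO-labelled library 5.96, a factor of 3.43 (1.98 to 6.09). *Cbx2* against *Cbx7* differed by a factor of 1.78 (1.32 to 2.42), and *Cbx8* against *Cbx7* by 0.520 (0.301 to 0.868). These pairs share genes and are not independent of each other. Their intervals hold counting error alone, and how often other pairs of genes differ this much was not measured. *Cbx2* and *Cbx8* are neighbours on chromosome 11, on opposite strands and 5034 bases apart. No exon of *Cbx2* or *Cbx8* overlaps another annotated gene, and none of their 61-base stretches is shared with one. *Cbx6*, on chromosome 15, had 1460 and 1515 normalised counts (0.05, -0.05 to 0.16).

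**Figure D2:**
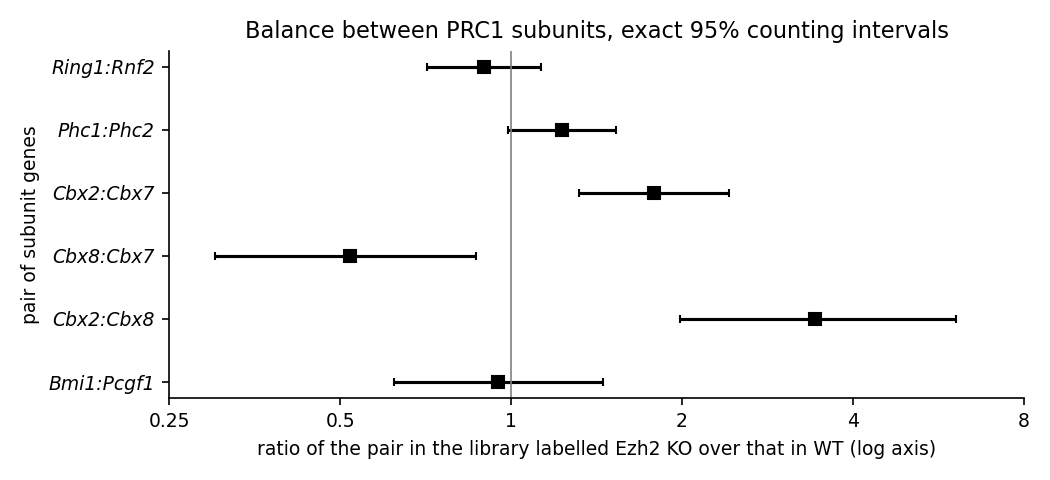
Count ratio within 6 pairs of PRC1 subunit genes in the Ezh2 KO-labelled library, divided by the same ratio in WT (log axis), with exact 95% counting intervals and a line at 1. The 3 Cbx pairs lie off 1, from 0.520 to 3.43, and the intervals of the other pairs include 1.

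The Phc subunits, which chain complexes together, did not differ beyond counting error for the members of the list, *Phc1* and *Phc2*. *Phc2* (chromosome 4, 128654702 to 128752881, plus strand) was the most counted member, with 1127 and 787 counts, or 967 and 917 normalised counts. Its log2 ratio was -0.08, and the interval of -0.21 to 0.06 leaves room for only a small difference between these libraries. *Phc1* (chromosome 6, 122317731 to 122340561, minus strand) had 226 and 194 counts, or 194 and 226 normalised counts (0.22, -0.06 to 0.50). The balance of *Phc1* to *Phc2* was 1.23 times that of WT (0.988 to 1.53). *Phc3*, the remaining paralog and not a member of the list, had fewer counts, 63 and 82, and a log2 ratio of 0.81 (0.33 to 1.32).

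**Figure D3:**
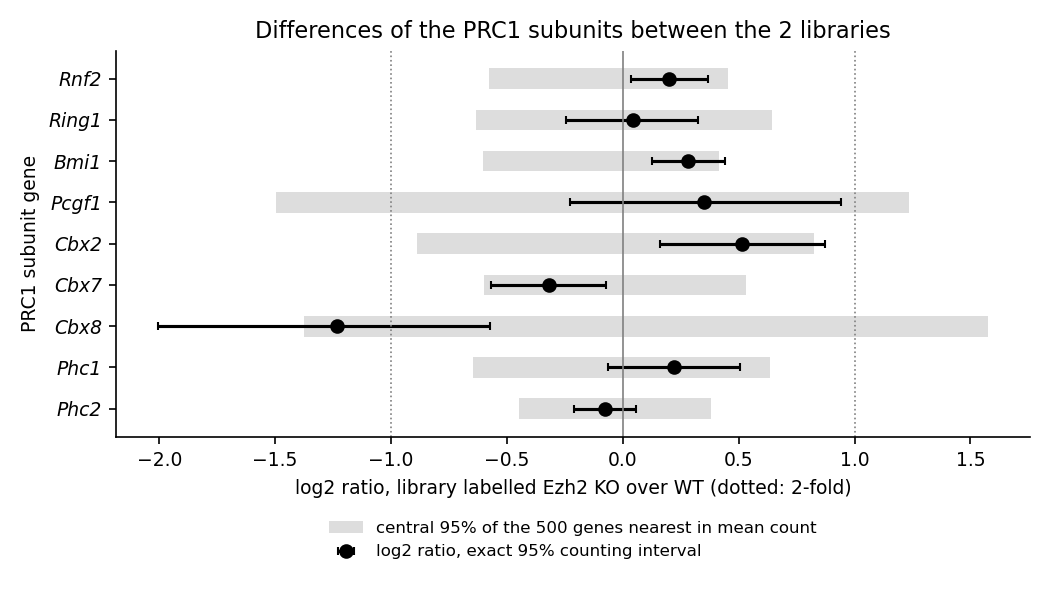
Log2 ratio of each PRC1 subunit, library labelled Ezh2 KO over WT, with its exact 95% counting interval (black) and the central 95% of the 500 genes nearest in mean normalised count (grey). *Cbx8* at -1.23 is the only subunit past the dotted 2-fold lines, and all 9 points lie inside their grey bars.

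**Figure D4:**
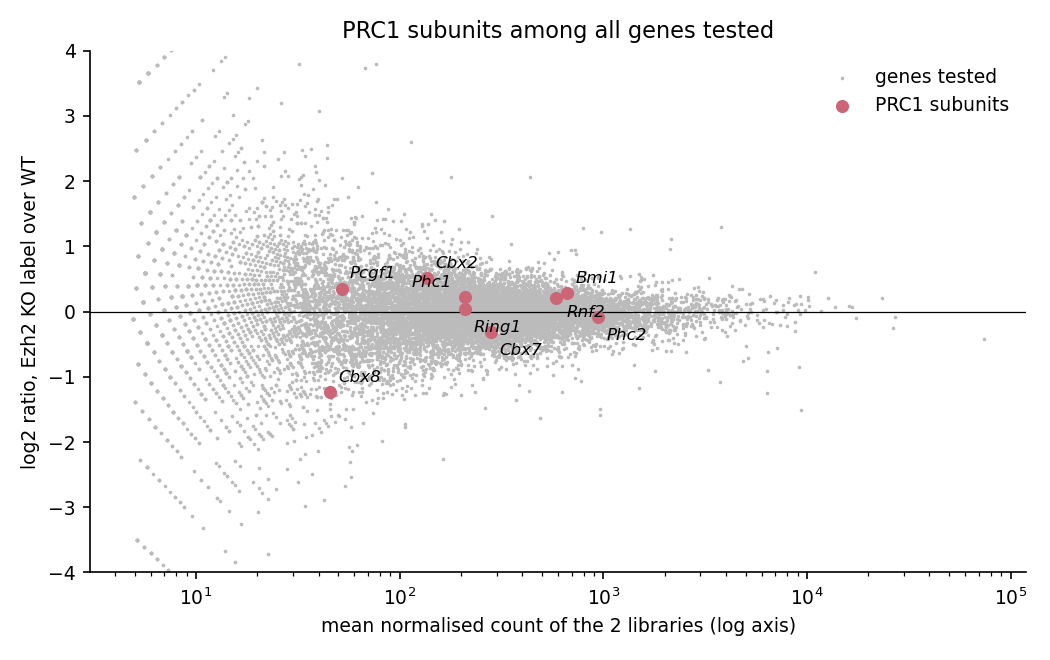
Log2 ratio (library labelled Ezh2 KO over WT) against mean normalised count (log axis) for the 12588 genes tested, in grey, with the 9 PRC1 subunits in red; 50 genes lie beyond the axis limits of 4. Ratios spread more widely at low counts, where *Cbx8* and *Pcgf1* lie, than at the level of *Phc2*, *Bmi1* and *Rnf2*.

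Levels of different subunits were compared as normalised counts per kilobase of exon, since longer transcripts give more reads. In WT the highest levels per kilobase were those of *Bmi1* (151, 95% Poisson interval 140 to 163), *Phc2* (137, 129 to 145) and *Rnf2* (133, 123 to 144), whose order was not resolved. *Ring1* followed at 63.5, then *Cbx7* at 48.2, and each of these lay apart from its neighbours. *Phc1* (36.6), *Pcgf1* (27.6), *Cbx2* (26.2) and *Cbx8* (17.5) came last, and the interval of each overlapped that of the next. In the Ezh2 KO-labelled library *Bmi1* (184), *Rnf2* (153) and *Phc2* (130) were apart from each other. *Ring1* (65.4) was again the next and was apart from *Phc1* (42.7), *Cbx7* (38.6), *Cbx2* (37.5) and *Pcgf1* (35.3), which overlapped in turn, and *Cbx8* at 7.29 was apart from all of them. With the longest transcript or the median coding transcript as the length, *Bmi1*, *Phc2* and *Rnf2* still held the first 3 places in both libraries. *Cbx8* still held the last place. The order within the first 3 and the places in between differed, and with the longest transcript *Phc2* came first in both libraries. The order of *Bmi1*, *Rnf2* and *Phc2* in the Ezh2 KO-labelled library thus holds only for the exon length.

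The paralogs outside the list placed the members within their families. On the same scale *Bmi1* was far above every other Pcgf gene in WT, where *Pcgf6* had 28.8, *Pcgf5* 22.6, *Pcgf3* 12.8 and *Pcgf2* 0.97 normalised counts per kilobase. *Pcgf2*, the closest relative of *Bmi1*, had 4 counts in each library, too few to compare. Of the Cbx genes, *Cbx6* (138) was above *Cbx7* in WT, and *Phc3* (3.09) was far below *Phc2*. *Bmi1*, *Phc2* and *Rnf2* were thus the leading transcripts of their families in both libraries by this measure, whereas no Cbx member of the list led its family.

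Other subunits of the complex were counted over lists, and those named include the genes at least 1.5-fold apart. Of 6 other canonical subunits 5 were tested, of which 2 were at least 1.5-fold higher and 0 lower, with a median log2 ratio of 0.19, against 10.5% higher and 10% lower over all genes tested. These 2 were *Phc3* and *Scml2*, a Polycomb protein with 30 and 43 counts (0.93, 0.25 to 1.68). Of the 17 variant subunits 0 were at least 1.5-fold higher and 2 lower, with a median of -0.01. The 2 lower genes are 11.8% of this list, close to the 10% of all genes tested. The lower ones were *Pcgf6* and *L3mbtl2*, which is found in the same complex. *Pcgf6* had 145 and 85.1 normalised counts (-0.76, -1.19 to -0.37) and *L3mbtl2* 351 and 233 (-0.59, -0.84 to -0.34). Of the exon bases of *L3mbtl2*, 17.2% overlap *Chadl* on the opposite strand, and 12.8% of its 61-base stretches occur in that gene. The part of this overlap in its counts was not tested. *Rybp* and *Yaf2*, the alternatives to Cbx, had log2 ratios of 0.02 (-0.29 to 0.34) and 0.19 (-0.02 to 0.39). *Kdm2b* and *Bcor*, the partners of *Pcgf1*, had -0.33 (-0.60 to -0.06) and 0.04 (-0.22 to 0.29).

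Genes that act against PRC1 by taking ubiquitin off H2A were counted in the same way. Of 7 such genes 6 were tested, and 1 was at least 1.5-fold higher and 0 lower, against 10.5% and 10% of all genes tested. This gene was *Asxl2*, a cofactor of the deubiquitinase *Bap1*, with 113 and 196 normalised counts (0.78, 0.45 to 1.13). *Bap1* itself, added after its value was seen, had 879 and 865 (-0.02, -0.16 to 0.11), and the median of the list was 0.08. The intervals of *Asxl1* (-0.23, -0.45 to -0.02) and *Usp21* (-0.19, -0.38 to -0.01), also named after their values were seen, lay below 0. Of the 11 PRC2 genes 1 was at least 1.5-fold higher (9.09%, against 10.5% of all genes tested) and 0 lower. That gene was *Phf19*, a PRC2 accessory protein, with 17 and 27 counts (1.06, 0.18 to 2.08).

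**Figure D5:**
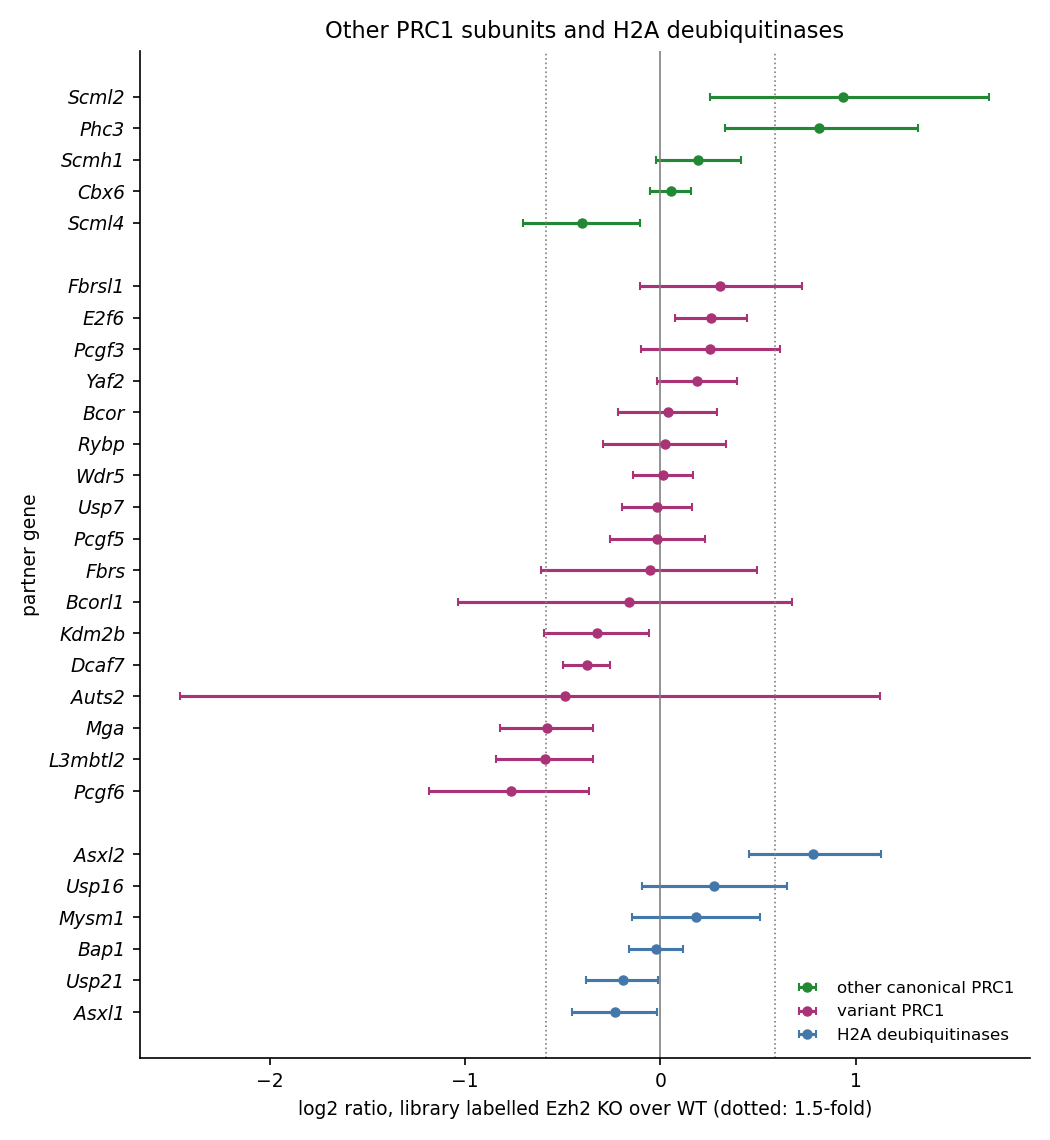
Log2 ratios (library labelled Ezh2 KO over WT) of the other canonical PRC1 subunits, the variant PRC1 subunits and the H2A deubiquitinases that passed the filter, with exact 95% counting intervals; dotted lines mark 1.5-fold. *Scml2*, *Phc3* and *Asxl2* lie to the right of the lines and *Pcgf6* and *L3mbtl2* to the left.

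Of the textbook targets of PRC1, 4 single genes were at or close to 0 in both libraries. *Cdkn2a*, the cell-cycle inhibitor locus that Bmi1 silences, had 0 counts in WT and 1 in the Ezh2 KO-labelled library, and its neighbour *Cdkn2b* had 0 in both. The B lineage factors *Ebf1* (2 and 5 counts) and *Pax5* (0 and 1) were as low. None of the 4 reached the filter. The 39 Hox genes in the files, developmental regulators counted as a group, summed to 363 CPM in WT and 339 CPM in the other library, and 20 were at 0 in each. Of the 15 tested 3 were at least 2-fold lower and 0 higher, against 3.9% and 4.91% of all genes tested, with a median log2 ratio of -0.23. Counting intervals lay below 0 for 4 of these 15 (26.7%) and above 0 for 1 (6.67%), against 20.8% and 19.2% of all genes tested.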

How the data were processed

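RNA-seq counts of sorted HSCs were analysed, with 1 WT library and 1 library labelled Ezh2 KO, grouped by labelled genotype. The authors deposited unnormalised counts, 1 whole number per gene symbol and library. Per the labels and methods, reads were aligned to mm10 with TopHat2 2.0.13 and Bowtie2 2.1.0. The methods name StringTie as the source of counts, but each file ends with the 5 entries that htseq-count writes, so the counter and its strand setting are not given in the sources used here. Those entries were left out of the totals. They hold 44.9% (WT) and 44.1% of reads in no feature, 10.7% and 12.3% not uniquely aligned, and 0.532% and 0.539% ambiguous.

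Normalised counts used DESeq2 1.42.0 size factors (median of ratios, in R 4.3.3) of 1.17 (WT) and 0.858. Log2 ratios, always the library labelled Ezh2 KO over WT, were formed after adding 1 to the normalised counts. Genes with a mean of at least 1 CPM counted as tested. With 1 library per group neither edgeR nor DESeq2 can estimate a spread, so no test was run and no p-value is given. A gene was called at a fold of 2 or 1.5. Each log2 ratio has an exact 95% interval (Clopper-Pearson, on the conditional share of counts), each level an exact Poisson one and each balance an exact conditional odds ratio one. The script was checked on simulated counts before use. Positions, exon lengths and 61-base stretches come from GENCODE M21 (GRCm38, the same assembly as mm10). Of 24421 symbols 23336 matched by current and 668 by older name, and all 9 members by current name. Promoter windows are those of RefSeq. Alternatives were TMM (edgeR 4.0.16) and total-count scaling, pseudocounts of 0.5 and 5, other filters, thinning of the WT library, 99% intervals, an assumed coefficient of variation (CV) of 0.2, removal of a length and GC trend, and other transcript lengths. Python 3.11.15, scipy 1.17.1, statsmodels 0.14.6 and matplotlib 3.10.9 were used.

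Members and lists were chosen with earlier results of these data known. Genes named are the members, *Ezh2*, their closest paralogs and partners, the targets, the cell markers, and any other listed gene at least 1.5-fold apart whose interval excluded 0. Others are said to be chosen after their values were seen. No gene was sought for likeness of pattern, since 2 libraries give a single ratio. For some genes of the lists results are not reported here, and list counts leave them out.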

Additional observations from a re-analysis of the deposited data

Results flagged for a closer look

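Multiply aligned reads, left out of every gene count, were 12.3% of entries in the Ezh2 KO-labelled library (95% Wilson interval 12.25% to 12.29%) and 10.7% in WT (10.73% to 10.77%). They were looked at again because they lie outside the gene counts and exceeded the level of the WT library. Their part in the counts of *Bmi1* and *Pcgf1*, of whose 61-base stretches 13.4% and 12.6% occur in other genes, was not tested.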

How the results depend on the processing

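No paired analysis was possible because WT and Ezh2 KO each had a single library. TMM and total-count scaling left every count of subunits as reported and gave a median log2 ratio between 0.20 and 0.23. With a minimum mean of 10 CPM, *Cbx8* was no longer tested, so 0 of 8 subunits were at least 2-fold lower and 0 at least 1.5-fold lower. Thinning the WT library to the depth of the other put 1 subunit, *Cbx2*, at least 1.5-fold higher. With 99% intervals 2 subunits lay above 0 and 1 below. When a CV of 0.2 between libraries was assumed, 0 lay above and 1 below, *Cbx8* (-2.31 to -0.22), against 3.96% and 3.27% of all genes tested. That CV was assumed and not measured. Of 54 recomputed log2 ratios of single subunits, 54 stayed inside the counting interval, and only *Ring1* after thinning (-0.01) had another sign. All of them reuse the same 2 libraries, and rescaling or another pseudocount shifts a ratio by little against its interval. They therefore say little about how far a new pair of libraries would differ. The log2 ratio of *Cbx8* lay between -1.25 and -1.13. All 6 balances stayed inside their intervals after thinning. Per-kilobase levels moved with the transcript length used, that of *Bmi1* in WT from 151 to 167 with the longest transcript and 972 with the median coding transcript. Depth limits *Cbx8* and *Pcgf1* most, with 23 to 75 counts per library.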

Other observations

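The variant complex around *Pcgf6* was looked at more closely after its values were seen. *Pcgf6* and *L3mbtl2* were joined by *Mga*, the DNA-binding subunit of the same complex, with 384 (WT) and 256 (Ezh2 KO-labelled library) normalised counts, a log2 ratio of -0.58 (95% counting interval -0.82 to -0.35). *E2f6*, another DNA-binding subunit, lay on the other side with 440 and 527 (0.26, 0.07 to 0.44). *Dcaf7*, a subunit of the *Pcgf3* and *Pcgf5* complexes also named after its value was seen, had 1344 and 1035 (-0.38, -0.50 to -0.26), while *Pcgf3* and *Pcgf5* had log2 ratios of 0.26 (-0.10 to 0.61) and -0.01 (-0.26 to 0.23). The intervals of *Wdr5* (0.01, -0.14 to 0.17), *Fbrs* (-0.05, -0.61 to 0.50), *Fbrsl1* (0.31, -0.11 to 0.73) and *Auts2* (-0.49, -2.46 to 1.12) included 0. These variant subunits were also named after their values were seen. Of the 17 variant subunits the interval lay below 0 for 5 (29.4%) and above 0 for 1 (5.88%), against 20.8% and 19.2% of all genes tested. As for the members, these values rest on 1 library per genotype.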
